A study of Homo sapiens
Mus musculus and Homo sapiens with 2 samples.

Results

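The genes described here are 10 heat shock proteins and their partners, taken by symbol from the 43167 genes of the A549 annotation, and all 10 were found. They are the small heat shock protein HSPB1, the HSP70 proteins HSPA1A, HSPA1B and HSPA8, the HSP110 protein HSPH1, the mitochondrial chaperonin pair HSPD1 and HSPE1, the J-domain cochaperones DNAJB1 and DNAJA1, and the transcription factor HSF1. They were followed in A549, a human lung adenocarcinoma line, by sci-fate, which counts newly made and total RNA in single cells. The treated cells received the synthetic glucocorticoid dexamethasone for 2, 4, 6, 8 or 10 h, and the 0 h cells received ethanol as vehicle. The protocol gives the dose as 100 nM and a further label gives 101 nM. Cells of all 6 times, 0 h included, were given 200 µM 4-thiouridine (S4U) for the last 2 h before harvest, so that RNA made in that window carries the label.

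Heat shock proteins keep other proteins folded. HSP70 proteins bind unfolded stretches of a client, J-domain proteins deliver clients and start the ATPase cycle, and HSP110 proteins exchange the nucleotide. Small heat shock proteins hold unfolding clients without ATP, and HSF1 is the factor that switches on many of these genes under heat or proteotoxic stress. The unliganded glucocorticoid receptor is itself a client of the HSP70 and HSP90 machinery, and dexamethasone releases it from that complex to act in the nucleus.

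There was 1 culture per time, so cells of a culture are not replicates. The p-values below rest only on differences between cultures, and with 1 culture at 0 h no spread was measured there. The 7404 cells carried 7404 different names, with 1045 to 1446 cells, 28870594 to 43084614 whole counts and 5865326 to 9718958 new counts per culture. New counts made up 20.3% to 22.6% of a culture. Each of the 10 genes had at least 1514 whole and 188 new counts in every culture, both for HSPA1B. Levels are given as normalised CPM (counts scaled to a common library size), separately for whole RNA, new RNA and pre-existing RNA, which is whole minus new. Each kind is scaled to its own library size, so levels of one kind are not compared with those of another. For genes used as cell type markers or as a sign of handling stress, CPM are raw counts over the culture total. The A549 and lung epithelial markers fixed for the check summed to between 16237 and 20479 CPM of whole RNA, with 9 of 11 above 1 CPM in each culture and the lung secretory markers NAPSA and SFTPB below it. Fibroblast markers (6 genes) summed to 7.10 to 13.5 CPM, most of it COL1A1 (5.66 to 10.7 CPM), with COL3A1 at up to 2.64 CPM. Immune markers (5 genes) summed to 7.76 to 11.1 CPM, most of it CD68 (6.34 to 9.77 CPM), with CD14 at up to 1.21 CPM. The 2 endothelial markers summed to 1.04 to 1.40 CPM. CD3E, COL1A2 and LUM were at 0 in at least 1 culture.

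In GENCODE 29 on GRCh38, HSPB1 lies on the plus strand at chr7:76302544-76304295 with 3 exons. HSPA1A (chr6:31815464-31817946) and HSPA1B (chr6:31827735-31830255) lie on the same strand, 9788 bp apart, and each is a single exon. The 2 copies are shown because counts can be told apart only where the genes differ. Their coding sequences, 1923 bases each without the stop codon, differ at 4 positions (99.8% identical) and share an identical run of 1709 bases. The genes also differ outside the coding sequence, which was not compared base by base. The annotated transcripts are 2483 bases (HSPA1A) and 2521 bases (HSPA1B) long, with 17.7% and 19.2% uridines. The last 30 coding bases hold 2 of the 4 differences, in capitals, at positions 1894 to 1923 counted from the start codon.
HSPA1A: gggtcaggcccCaccattgaggaggtAgat
HSPA1B: gggtcaggcccTaccattgaggaggtGgat
HSPE1 (chr2:197499994-197503457, plus strand) lies within the annotated span of HSPD1 (chr2:197486581-197516737, minus strand), and the sources used here do not say whether strand was used in the counting. The split of counts within each of these pairs is therefore uncertain, and values of HSPA1A, HSPA1B, HSPD1 and HSPE1 are to be read with that limit.

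HSPB1 rose in new RNA in all 5 treated cultures, and its whole RNA climbed steadily from 2 h to 10 h. HSPB1, also called HSP27, forms large oligomers that hold unfolding proteins and is known to protect actin filaments. Its new RNA stood at 106, 239, 282, 369, 330.0 and 342 CPM at 0, 2, 4, 6, 8 and 10 h. Every treated culture lay above 0 h, as for 24.9% of all genes in new RNA, and the highest was 6 h. The 5 treated cultures averaged 313 ± 51.9 CPM (SD, n = 5), against 106 in the 0 h culture. The fitted difference was 1.56 ± 0.22 (SE) on the log2 scale, with an adjusted p of 0.00336 by edgeR's quasi-likelihood test. The call held in 8 of 8 alternative settings, with adjusted p between 1.60e-11 and 0.0101.

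Pre-existing HSPB1 RNA was near its 0 h level at 2 h and above it later. At 2 h, when the label covered the whole exposure, pre-existing RNA stood at 492 CPM, against 493 CPM at 0 h. At 4, 6, 8 and 10 h it stood at 671, 900.0, 1152 and 1423 CPM, so each later culture was above the one before. Whole RNA from 0 to 10 h stood at 410.5, 441, 595, 775, 971 and 1198 CPM. Over the 5 treated times the slope was 0.179 ± 0.0072 log2 units per hour in whole RNA (adjusted p = 7.05e-06, edgeR) and 0.192 ± 0.0070 in pre-existing RNA (adjusted p = 6.17e-06). Both slopes ranked 2nd by p, among 21493 and 19454 genes tested. In new RNA the slope was 0.062 ± 0.018 and did not pass (adjusted p = 0.0594), though it did without the 6 h culture (0.063 ± 0.012, adjusted p = 0.0117).

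**Figure D1:**
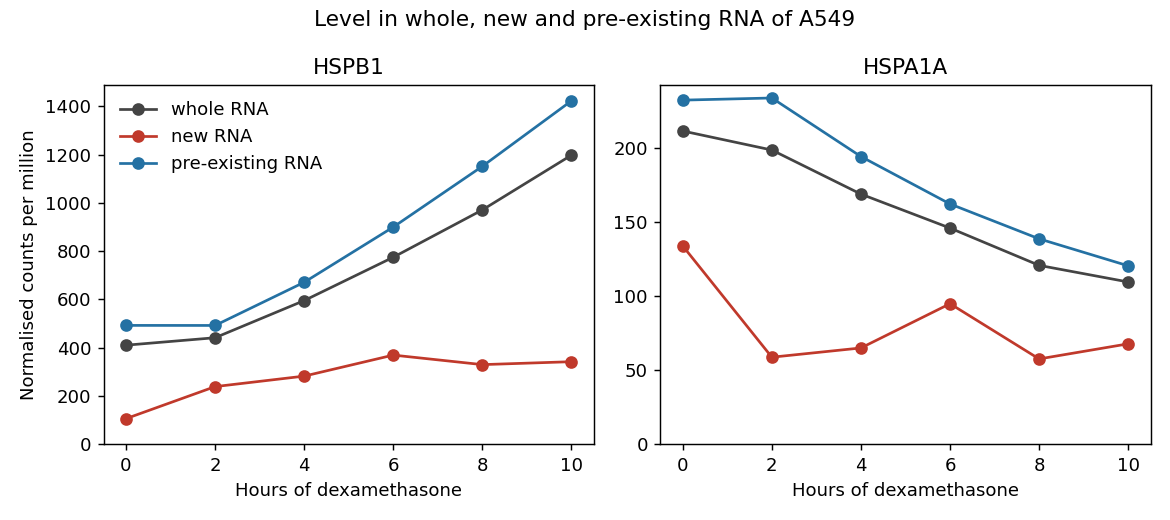
Normalised CPM (vertical axis, from 0) of HSPB1 and HSPA1A against hours of dexamethasone (horizontal axis), 1 point per culture, for whole, new and pre-existing RNA. New HSPB1 RNA was 106 CPM at 0 h and 239 CPM at 2 h, where pre-existing RNA was still at 492 CPM, and new HSPA1A RNA was 134 CPM at 0 h and 58.8 CPM at 2 h.

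In the comparison with 0 h, the spread of the treated cultures includes this change over time. Whole HSPB1 RNA averaged 796 ± 299 CPM in the 5 treated cultures (SD, n = 5), against 410.5 CPM at 0 h, and its log2 difference of 0.96 ± 0.47 did not pass (adjusted p = 0.461, edgeR). Pre-existing RNA averaged 928 ± 371 CPM in treated cultures, against 493 CPM at 0 h, with a log2 difference of 0.91 ± 0.51 (adjusted p = 0.651). All comparisons with 0 h share that single culture.

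The inducible HSP70 genes went the other way. HSPA1A and HSPA1B, which encode nearly the same HSP70 protein and are strongly switched on by heat, both fell in new RNA. At 0, 2, 4, 6, 8 and 10 h new HSPA1A RNA stood at 134, 58.8, 65.0, 94.9, 57.6 and 67.8 CPM. New HSPA1B RNA stood at 63.4, 28.4, 32.2, 41.9, 27.3 and 36.2 CPM at the same times. For both genes all 5 treated cultures lay below 0 h, beside 24.1% of all genes in new RNA. The 6 h culture was the highest of the treated ones. The treated mean was 68.8 ± 15.2 CPM for HSPA1A, against 134 at 0 h, a log2 difference of -0.96 ± 0.22 (adjusted p = 0.0311, edgeR). For HSPA1B it was 33.2 ± 5.99 CPM, against 63.4 at 0 h, a log2 difference of -0.93 ± 0.20 (adjusted p = 0.0230). The HSPA1A call was lost without the 4 h culture (adjusted p = 0.0719) and without the 8 h culture (0.0566), and the HSPA1B call without the 4 h culture (0.0564).

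The 5 genes fixed as a sign of handling stress (FOS, JUN, EGR1, ATF3 and IER2) did not all lie on the same side of 0 h. They summed to 38.9 to 77.0 CPM of new RNA in the treated cultures, against 143 CPM at 0 h, and 2 of the 5 were below 1 CPM of whole RNA at 0 h. The sum rests mostly on IER2, at 10.2 to 23.4 CPM of new RNA in treated cultures, against 60.5 CPM at 0 h (log2 difference -1.74 ± 0.30, adjusted p = 0.00939, edgeR), and JUN, at 15.8 to 39.0 CPM, against 68.2 CPM (-1.18 ± 0.33, adjusted p = 0.0704). FOS was on the other side from 4 h on, with 7.82 to 9.85 CPM, against 2.57 CPM at 0 h and 2.20 CPM at 2 h (log2 difference 1.55 ± 0.67). Of the 5, only IER2 passed the test in new RNA. Their part in the change of HSPA1A and HSPA1B was not tested.

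Whole and pre-existing RNA of both genes declined over the treated times. Whole HSPA1A stood at 212, 199, 169, 146, 121 and 109.6 CPM at 0, 2, 4, 6, 8 and 10 h. Whole HSPA1B stood at 87.5, 80.4, 61.9, 53.8, 44.0 and 40.9 CPM. Both series were lower at each time than at the one before. The slope in whole RNA was -0.110 ± 0.0072 log2 units per hour for HSPA1A (adjusted p = 5.10e-05, edgeR) and -0.122 ± 0.0103 for HSPA1B (adjusted p = 1.84e-04). As with HSPB1, pre-existing RNA at 2 h was near its 0 h level, at 234 CPM for HSPA1A against 232 CPM at 0 h, and at 93.4 CPM for HSPA1B against 93.9 CPM at 0 h. By 10 h it stood at 120.5 CPM for HSPA1A and 42.1 CPM for HSPA1B.

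HSPA8, the constitutive HSP70 known as HSC70, showed no difference in new RNA that passed the test. Its new RNA ran from 616 to 812 CPM in treated cultures, against 782 CPM at 0 h, with 1 of 5 treated cultures above 0 h (log2 difference -0.14 ± 0.13, adjusted p = 0.660, edgeR). Whole HSPA8 RNA fell over the treated times, with 931 CPM at 2 h and 699 CPM at 10 h, a slope of -0.049 ± 0.011 log2 units per hour (adjusted p = 0.0208). That call was lost without the 8 h culture (adjusted p = 0.0764) or the 10 h culture (0.246), where the slope was -0.030.

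HSPH1, an HSP110 protein that serves as nucleotide exchange factor for HSP70, stood at 244, 175, 157, 190.3, 143 and 141 CPM of new RNA at 0, 2, 4, 6, 8 and 10 h. All 5 treated cultures lay below 0 h, beside 24.1% of all genes in new RNA. They averaged 161 ± 21.3 CPM (SD, n = 5), against 244 CPM at 0 h. The log2 difference of -0.60 ± 0.15 narrowly missed the threshold (adjusted p = 0.0510, edgeR), and 5 of 8 alternatives passed it, among them DESeq2 (adjusted p = 0.0164). Its whole RNA fell over the treated times at -0.073 ± 0.0090 log2 units per hour (adjusted p = 0.00113), and stood at 295 CPM at 10 h, against 455 CPM at 0 h.

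HSPD1 and HSPE1 encode HSP60 and HSP10, the barrel and lid of the chaperonin of the mitochondrial matrix. New HSPD1 RNA ran from 453 to 552 CPM in treated cultures, against 615 CPM at 0 h, and new HSPE1 RNA from 113 to 135 CPM, against 157 CPM at 0 h. For both genes all treated cultures lay below 0 h, as they did for 24.1% of all genes in new RNA. Neither difference passed the test, at -0.29 ± 0.12 for HSPD1 (adjusted p = 0.237, edgeR) and -0.33 ± 0.11 for HSPE1 (adjusted p = 0.131). In whole RNA both declined from 2 h to 10 h, HSPD1 at -0.041 ± 0.0058 log2 units per hour (adjusted p = 0.00208) and HSPE1 at -0.024 ± 0.0067 (adjusted p = 0.0471). The HSPE1 call held in 2 of 6 alternatives and the HSPD1 call in 6 of 6.

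The 2 J-domain proteins parted. DNAJB1, an HSP40 protein that works with inducible HSP70, stood at 221, 278, 331, 362, 292 and 309 CPM of new RNA at 0, 2, 4, 6, 8 and 10 h. All 5 treated cultures lay above 0 h in new, whole and pre-existing RNA, beside 24.9%, 22.7% and 20.3% of all genes. Its log2 difference of 0.51 ± 0.14 in new RNA missed the threshold (adjusted p = 0.0702, edgeR), and 3 of 8 alternatives passed it, among them DESeq2 (adjusted p = 0.0320). In whole RNA DNAJB1 stood at 98.2, 118, 148, 168, 142 and 145 CPM at these times, with a log2 difference of 0.55 ± 0.16 (adjusted p = 0.202). Pre-existing DNAJB1 RNA stood above 0 h at 2 h, at 77.8 CPM against 65.0 CPM, and at 113 CPM at 6 h. Counts taken as pre-existing also hold new molecules that were not recognised as new, and their part here was not tested. The whole RNA difference passed by DESeq2 (adjusted p = 0.0291) and without the 2 h culture (0.00816). Its slope did not pass in any kind of RNA.

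DNAJA1, an HSP40 protein of the type that carries a zinc finger, fell in new RNA. At 0, 2, 4, 6, 8 and 10 h it stood at 392.2, 277, 295, 316, 259.9 and 254 CPM. All treated cultures lay below 0 h, beside 24.1% of all genes in new RNA. The log2 difference was -0.48 ± 0.12 (adjusted p = 0.0460, edgeR), close to the threshold, and it was lost without the 4 h culture (0.0697), the 8 h culture (0.0992) or the 10 h culture (0.0655). Whole DNAJA1 RNA stood at 318 CPM at 10 h, against 459 CPM at 0 h, with a slope of -0.063 ± 0.0067 log2 units per hour (adjusted p = 5.62e-04).

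HSF1 had the smallest fitted difference of the 10 from 0 h in new, whole and pre-existing RNA. Its new RNA ran from 57.8 to 66.8 CPM in treated cultures, against 58.1 CPM at 0 h, and its whole RNA from 91.2 to 98.5 CPM, against 91.9 CPM. The log2 difference was 0.09 ± 0.11 in new RNA (adjusted p = 0.753, edgeR) and 0.04 ± 0.07 in whole RNA (adjusted p = 0.886). HSF1 is known to be controlled largely at the level of the protein, which was not measured here.

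**Figure D2:**
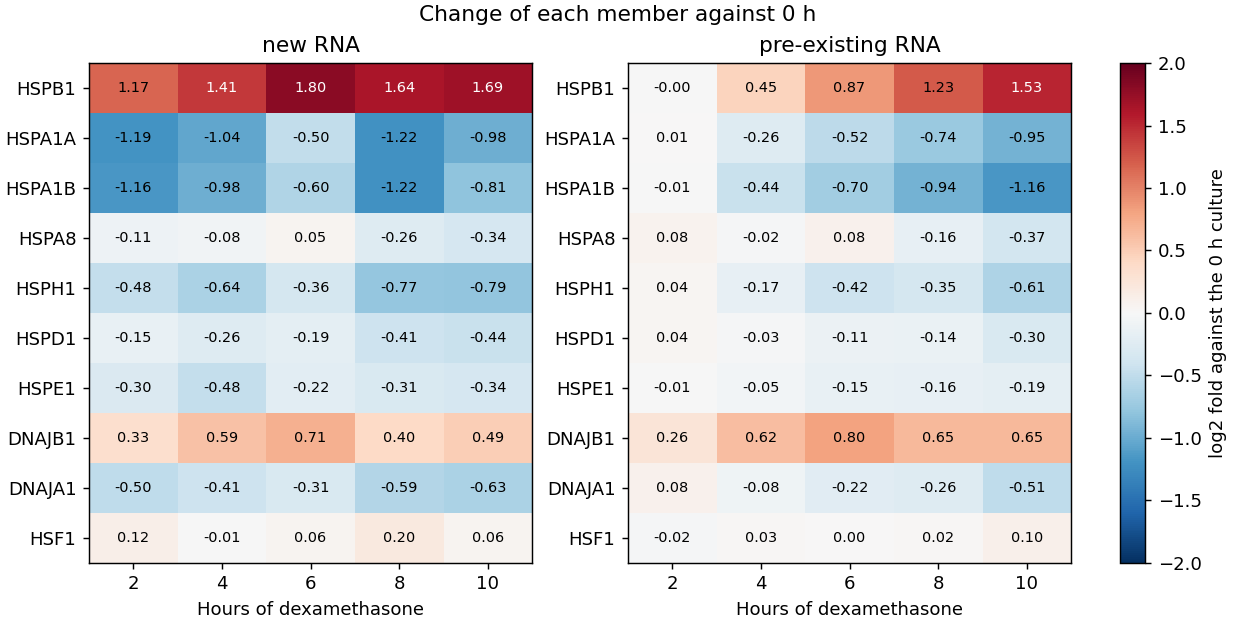
Log2 fold of each of the 10 genes against the 0 h culture (colour and printed value) at 2, 4, 6, 8 and 10 h of dexamethasone, in new RNA (left) and pre-existing RNA (right). At 2 h new HSPB1 RNA was at 1.17 and new HSPA1A RNA at -1.19, while pre-existing RNA of both was within 0.01 of 0 h.

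Counted together in new RNA, 1 of the 10 genes was called higher (HSPB1) and 3 lower (HSPA1A, HSPA1B and DNAJA1) in treated cultures than at 0 h. Over the 17507 genes tested in new RNA, 3.82% were called higher and 2.18% lower. The median log2 difference of the 10 was -0.31, beside 0.01 over all genes. The treated cultures lay wholly above 0 h for 2 of the 10 in new RNA, beside 24.9% of all genes, and wholly below for 6 of the 10, beside 24.1%.

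In whole and in pre-existing RNA none of the 10 was called against 0 h by edgeR. Over all genes 0.603% were called higher and 0.275% lower in whole RNA, and 0.0533% higher and 0.063% lower in pre-existing RNA. At an unadjusted p under 0.05, 1 of the 10 (DNAJB1) passed in each, beside 12.8% of all genes in whole and 8.00% in pre-existing RNA, and DESeq2 called 1 in whole RNA, again DNAJB1, and 0 in pre-existing RNA.

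Over the treated times 1 of the 10 rose in whole RNA (HSPB1) and 7 fell (all but HSPB1, DNAJB1 and HSF1), where 6.10% of 21493 genes were called rising and 6.53% falling. The same counts, of the same 8 genes, came from pre-existing RNA (where HSPA8 passed in 3 of 6 alternatives and HSPE1 in 2 of 6), beside 6.12% rising and 6.14% falling over all genes. In new RNA none of the 10 had a slope past the threshold by edgeR, against 3.55% rising and 4.15% falling over all genes, and 3 of the 10 had an unadjusted p under 0.05, beside 21.5% of all genes.

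**Figure D3:**
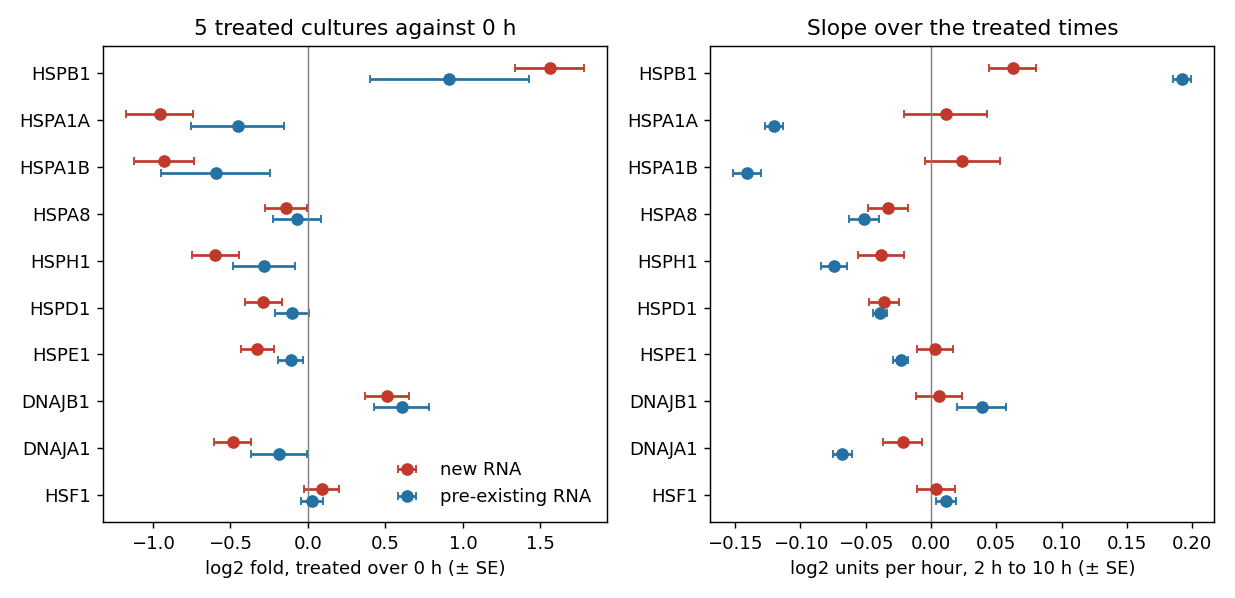
Fitted changes of the 10 genes with their standard errors, in new (red) and pre-existing RNA (blue): log2 fold of the 5 treated cultures over 0 h (left) and slope in log2 units per hour from 2 h to 10 h (right). HSPB1 stands at 1.56 in new RNA on the left and at 0.192 per hour in pre-existing RNA on the right, and HSPA1A and HSPA1B at -0.96 and -0.93 in new RNA.

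A joint model compared the change of new RNA with that of pre-existing RNA. HSPB1 showed the widest gap of the 10, with a new RNA change larger by 0.75 ± 0.28 log2 units (adjusted p = 0.875, edgeR), and HSPA1A was at -0.46 ± 0.34 (adjusted p = 0.963). None of the 10, and none of 22440 genes in either direction (0%), was called. At an unadjusted p under 0.05, HSPB1 and 1216 genes in all passed. Without the filter on low counts 183 genes were called, HSPB1 among them (0.76 ± 0.13, adjusted p = 2.57e-06).

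HSPB1 was also set against the other 9 genes directly. Its log2 CPM minus their median in new RNA was -1.06, 0.45, 0.85, 0.96, 1.21 and 1.28 at 0, 2, 4, 6, 8 and 10 h. The treated mean lay 2.00 above 0 h with an SD of 0.33 (n = 5). The log2 fold of HSPB1 was above that of the other gene in 45 of 45 pairs of a gene and a treated time. The pairs reuse the same 5 HSPB1 values and 1 culture at 0 h, so they are not independent and are a description only. In an exact permutation test over the 6 cultures, two-sided, p was 0.167, the smallest that 1 culture against 5 can give. In whole RNA the treated mean lay 1.15 above 0 h (SD 0.78, exact p = 0.333, 43 of 45 pairs), and in pre-existing RNA 1.03 (SD 0.83, exact p = 0.500, 38 of 45 pairs).

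The share of a gene's counts that were new differed between members. Pooled over the 6 cultures it was 46.3% for DNAJB1 (exact 95% interval 45.7 to 46.8), 17.8% for HSPA8, 15.8% for DNAJA1, 13.8% for HSF1, 13.4% for HSPA1B and 10.8% for HSPA1A. HSPH1 had 9.85%, HSPB1 8.03% (7.90 to 8.16), HSPE1 6.85% and HSPD1 6.82%. The order at the low end changed with time, and at 0 h HSPB1 was the lowest of the 10, at 5.51%, below HSPD1 (7.55%) and HSPE1 (7.68%). The median over the 11527 genes with at least 1000 whole counts was 26.3%, and the 10th percentile was 7.29%, so DNAJB1 alone of the 10 lay above the median. The label can be read only at uridines, and the annotated HSPB1 transcript holds 16.4% of them, against 23.3% for DNAJB1 and 25.6% for HSPD1. The part of base composition in these shares was not tested.

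At 0, 2, 4, 6, 8 and 10 h the new share of HSPB1 was 5.51%, 10.9%, 9.69%, 10.6%, 7.31% and 5.99%. It was highest at 2 h (exact interval 10.4 to 11.4, against 5.13 to 5.90 at 0 h), and by 10 h it was near its 0 h value although the new RNA level remained above 0 h. That of HSPA1A was 13.5%, 5.95%, 7.86%, 14.4%, 10.3% and 13.0% at these times. HSPH1 and DNAJA1 had a like pattern, with 7.74% and 12.1% at 2 h and 12.5% and 18.2% at 6 h. The 6 h culture as a whole had the highest new share of the 6, at 22.6%. DNAJB1 kept within 44.2% to 47.9% and HSF1 within 12.5% to 15.2%. The intervals hold the error of counting and nothing of the spread between cultures.

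**Figure D4:**
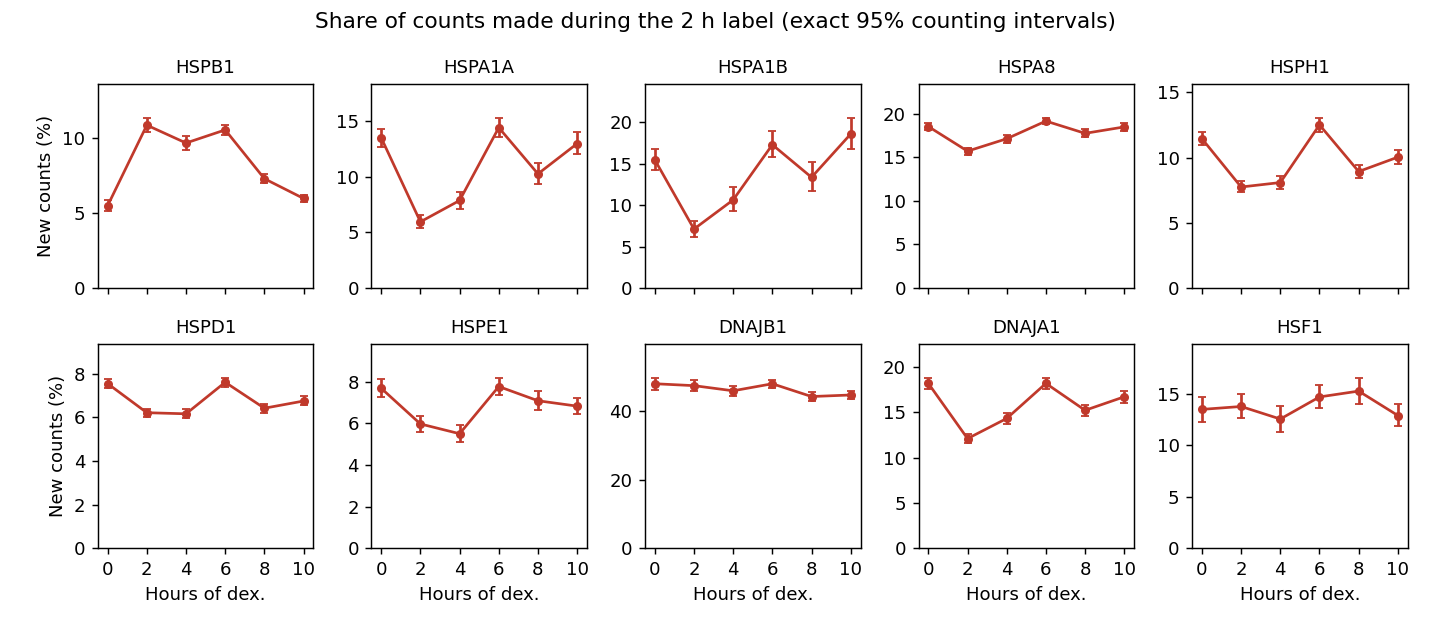
Share of each gene's counts that were new (vertical axis, percent, from 0, scaled per gene) against hours of dexamethasone, 1 point per culture with exact 95% counting intervals. HSPB1 stands at 5.51% at 0 h and 10.9% at 2 h, HSPA1A at 13.5% at 0 h and 5.95% at 2 h, and DNAJB1 between 44.2% and 47.9%.

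The background of the new call came from the second sample, a mixture of the human embryonic kidney line HEK293T and the mouse fibroblast line NIH/3T3, where labelled cells had S4U for 6 h. In the 1025 HEK293T cells with iodoacetamide but no S4U, 0.308% of HSPB1 counts were called new (2 of 650, exact 95% interval 0.0373 to 1.107). The share was 0.507% for HSF1, 0.738% for DNAJB1, 0.888% for DNAJA1 and 0.913% for HSPE1. It was higher for HSPA8 (1.034%), HSPD1 (1.109%), HSPA1B (1.181%) and HSPH1 (1.368%), and 1.241% over all human counts. HSPA1A had 7 counts, 0 of them new. With S4U but no iodoacetamide, HSPA1B stood at 2.503% (exact 95% interval 1.952 to 3.157). With neither S4U nor iodoacetamide it stood at 1.907% (1.587 to 2.271). In the 913 HEK293T cells with both, the shares were 13.5% for HSPB1 (10.7 to 16.8) and 77.7% for DNAJB1 (74.4 to 80.8). Among the other members in these cells, the new share was 80.6% for HSPA1B, 69.8% for HSPA8, 58.5% for DNAJA1, 53.5% for HSPH1 and 39.1% for HSF1, and lower for HSPE1 (24.3%) and HSPD1 (19.9%). The label lasted 6 h there and 2 h in A549, so the shares are set side by side without a comparison. The background in A549 is unknown, as no unlabelled A549 cells were used here. HEK293T counts of the twin genes went almost wholly to one: HSPA1B had 9231 counts and HSPA1A 7 in the cells with iodoacetamide only, and the other 3 treatments likewise gave HSPA1A 1 to 3 counts. Mouse Hspb1 had 0 counts in all 4 NIH/3T3 groups.

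Single cells were compared after each was thinned to 10000 whole counts, so that depth is equal. The median cell held 4, 4, 5, 7, 8 and 10 HSPB1 counts at 0, 2, 4, 6, 8 and 10 h. The 10th percentile was 3 at 10 h, against 1 at 0 h, and the 90th percentile 21, against 8. The share of cells with an HSPB1 count was 99.2% at 10 h (exact 95% interval 98.6 to 99.6), against 95.1% at 0 h (93.7 to 96.3). Without thinning it was 99.5% at 10 h, against 98.4% at 0 h. The variance over the mean across cells was 5.67 at 10 h, against 2.13 at 0 h, and the mean was 11.7, against 4.18. This ratio can grow with the mean, so it does not show a wider relative spread between cells.

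At 0, 2, 4, 6, 8 and 10 h HSPA1A was found in 81.4%, 79.4%, 73.6%, 68.6%, 62.6% and 58.1% of thinned cells, and without thinning in 80.4% at 10 h, against 93.9% at 0 h. HSPA1B was found in 29.3% of thinned cells at 10 h, against 55.1% at 0 h (56.8% and 79.9% without thinning). DNAJB1 was found in 70.5% at 10 h, against 57.2% at 0 h, with its peak of 76.9% at 6 h, and HSF1 in 58.4% to 63.3% throughout. For comparison, human HSPB1 and HSPA1B had a count in 2 and 16 of 3089 NIH/3T3 cells of all 4 treatments. That is a background level of the mixture, and HSPA1B was in at most 1.25% of a treatment's cells. Human HSPD1, the highest of the 10, was in 74 of these cells, and in 2.33% to 2.49% of a treatment's cells. Human HSPA1A was in 0, but HEK293T cells held at most 7 HSPA1A counts per treatment, so that 0 cannot serve as its background. The NIH/3T3 groups had medians of 6731 to 7979 counts per cell, where A549 cultures had medians of 25546 to 28193. In new RNA, with each cell thinned to 2000 new counts, HSPB1 was found in 17.9%, 34.2%, 36.5%, 47.0%, 43.0% and 43.0% of cells at 0, 2, 4, 6, 8 and 10 h, and HSPA1A in 22.1%, 10.9%, 10.9%, 14.5%, 10.2% and 9.97%. Most cells therefore held no new count of either gene at this depth. Between 19 and 48 cells per culture were left out of the whole RNA counts as too shallow.

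**Figure D5:**
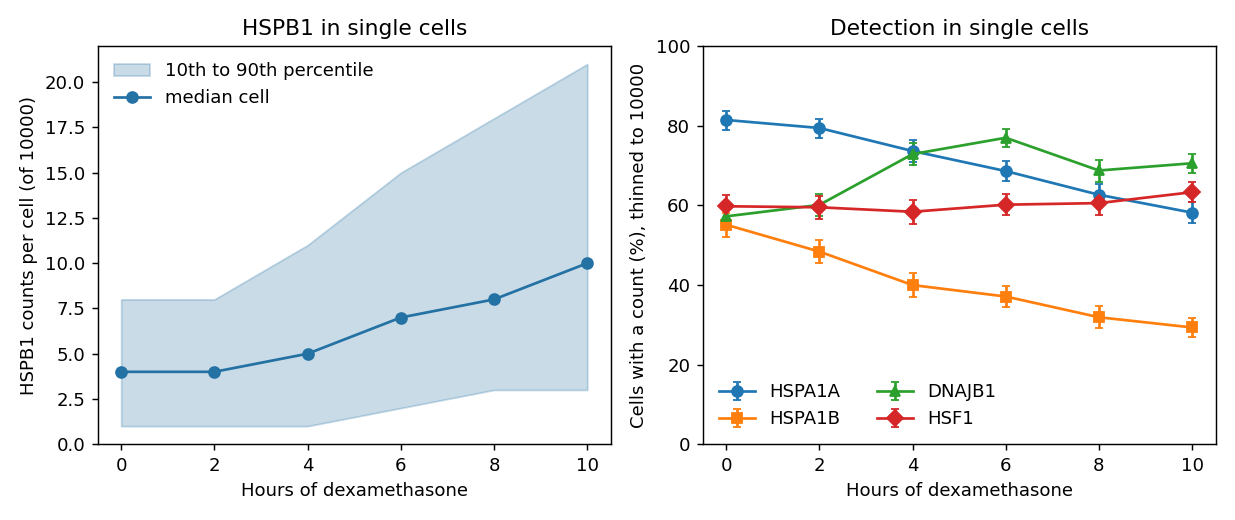
Left, HSPB1 counts per cell after thinning to 10000 whole counts: median cell (line) and 10th to 90th percentile (band) against hours of dexamethasone. Right, percent of thinned cells with a count of HSPA1A, HSPA1B, DNAJB1 or HSF1, with exact 95% counting intervals. The median cell held 4 HSPB1 counts at 0 h and 10 at 10 h, and HSPA1A was found in 81.4% of cells at 0 h and 58.1% at 10 h.

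Across the cells of a culture the correlations between members were weak. Of 45 pairs, 23 had a positive r in all 6 cultures, 2 a negative r in all 6, and 20 had both signs. The pair with the highest correlation was HSPA1A with HSPA1B, with a Pearson r of 0.27 to 0.44 across the 6 cultures (1016 to 1419 cells each, thinned counts of the same libraries), and these twin genes can share reads. HSPD1 with HSPE1, which overlap, had 0.15 to 0.24, HSPA1A with DNAJA1 0.11 to 0.23, HSPA8 with HSPH1 0.12 to 0.19, and HSPB1 with HSPA8 -0.18 to -0.10. Counting noise lowers r in sparse counts, so these values are a description and do not show that members vary independently.

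By distance over the 5 treated times in log2 CPM relative to 0 h, among 8645 genes with at least 100 new counts in every culture, the new RNA pattern of HSPB1 was nearest to that of RBMS3 (0.21), SGK1 (0.24), PTPRN2 (0.28), IQGAP2 (0.30) and KIAA0232 (0.32). SGK1 encodes a serum- and glucocorticoid-regulated kinase, and its new RNA stood at 1.13 log2 units above 0 h at 2 h and 1.63 at 10 h. In whole RNA the nearest to HSPB1 were THBS1, CEP70, DOCK4, FGB and SRGN, at distances of 0.24 to 0.36. For HSPA1A in new RNA the nearest gene was HSPA1B (0.21), followed at over 0.47 by TSHZ3, KIRREL, ZBTB18 and MIR137HG.

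Of 94 other genes of the chaperone network, listed by role, 84 were tested in new RNA, where 4 were called higher and 2 lower in treated cultures, with a median log2 difference of -0.09, beside 0.01 over all genes. Both counts are near the shares over all genes, 3.82% higher and 2.18% lower. Among those higher was FKBP5, an HSP90 cochaperone of the glucocorticoid receptor and a known glucocorticoid target. Its new RNA stood at 63.0, 776, 1060.1, 1019, 1006 and 957 CPM at 0, 2, 4, 6, 8 and 10 h (3.93 ± 0.20, adjusted p = 1.50e-05, edgeR). FKBP4, its relative in the same complexes, stood at 56.6 to 68.7 CPM in treated cultures, against 97.1 CPM at 0 h (-0.66 ± 0.13, adjusted p = 0.0147).

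UBB, which encodes ubiquitin, the tag for protein breakdown, was called lower in new RNA. It stood at 309 to 351 CPM in treated cultures, against 456 CPM at 0 h (-0.48 ± 0.09, adjusted p = 0.0137, edgeR). Among J-domain genes DNAJB5 was called higher (1.71 ± 0.38, adjusted p = 0.0284, edgeR), and so was DNAJC15 (adjusted p = 0.0277). DNAJB5 had 54 to 98 new counts in treated cultures, against 19 at 0 h. DNAJC15 had 43 to 245 new counts in treated cultures, against 1 at 0 h. Of the genes that did not pass, the widest differences were those of the small heat shock protein CRYAB (2.22 ± 0.59, adjusted p = 0.0583), HSPA12A (-0.87 ± 0.24, adjusted p = 0.0676) and SERPINH1 (-0.81 ± 0.28, adjusted p = 0.142). CRYAB had few new counts, 14 to 37 in treated cultures, against 5 at 0 h.

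By family, none of the 4 HSP90 genes was called in new RNA, with HSP90AA1 at -0.75 ± 0.19 (adjusted p = 0.0519, edgeR) and 2 of the 4 at an unadjusted p under 0.05, beside 18.1% of all genes. None of the 8 subunits of the cytosolic chaperonin CCT was called, with 0 at an unadjusted p under 0.05, and their differences lay between -0.18 and -0.02. In whole and in pre-existing RNA 0 of 86 network genes tested were called against 0 h by edgeR, with 10 and 5 at an unadjusted p under 0.05, beside 12.8% and 8.00% of all genes. Over the treated times, 6 of 86 rose and 18 fell in whole RNA, beside 6.10% rising and 6.53% falling over all genes, so the count that rose is near that of all genes. CRYAB was among those that rose, at 0.360 ± 0.020 log2 units per hour (adjusted p = 2.05e-05), with 2.20 CPM at 0 h and 15.1 CPM at 10 h. Those that fell included HSP90AA1 (-0.082 ± 0.0067, adjusted p = 1.59e-04), HSP90AB1 and 4 of the 8 CCT subunits.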

How the data were processed

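Single-cell whole and new RNA counts of 1 A549 time course and of 1 HEK293T and NIH/3T3 mixture were used. The deposited values are raw, unnormalized counts of each gene in each cell, per the file headers. The authors called which molecules were new, by a method that the sources used here do not give. Per the submitters' processing notes, STAR 2.5.2b, Picard 1.105, SAMtools 1.3 and Trim Galore 0.4.1 were used with hg19 and mm10. The deposited cell annotation gives the authors' doublet score, whose highest value was 0.191 and which was not used as a filter here.

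Counts were summed over the cells of each of the 6 cultures, and whole minus new was taken as pre-existing. Pre-existing counts also hold new molecules that were not recognised as new. All genes were fitted with edgeR 4.0.16 (R 4.3.3), using TMM, filterByExpr (minimum count 10) and the quasi-likelihood test, with Benjamini-Hochberg adjustment over all genes tested and a threshold of 0.05. The 5 treated cultures were set against the lone 0 h culture (4 residual degrees of freedom), which is assumed to vary like them, and their spread includes change over time. The slope on hours used the 5 treated cultures (3 residual degrees of freedom), and new against pre-existing RNA used a term for each culture (4). Scripts were tested on simulated data.

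The alternatives were DESeq2 1.42.0, its size factors in edgeR, no low-count filter, and leaving out each treated culture. Cells were thinned to 10000 whole or 2000 new counts for shares of cells. Shares carry exact Clopper-Pearson 95% intervals. Gene structure came from GENCODE 29 (GRCh38), another build than that of the counts. The members and lists were chosen with earlier results of these data known. All 10 members are named, with the network genes that passed in any of the 3 comparisons with 0 h, the 3 widest that did not, and the 5 genes nearest in pattern to HSPB1 and HSPA1A. The values of 1 network gene that passed are not reported here. CRYAB, HSP90AA1, HSP90AB1 and the CCT subunits are also named for their slopes or family, chosen after their values were seen. The deposited annotation lists no gene whose symbol starts with MT-, so a mitochondrial share was not computed.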

Additional observations from a re-analysis of the deposited data

Results flagged for a closer look

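The 6 h culture stood apart from the other treated ones in new HSPA1A RNA, at 94.9 CPM, against 57.6 to 67.8 CPM in the other 4, a gap of 0.726 of the whole range. This was 1 of 30 groups of 5 treated cultures examined, and chance flags about 1 in 20 groups. Without the 6 h culture the log2 difference from 0 h was -1.10 ± 0.12 (adjusted p = 0.00327, edgeR).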

How the results depend on the processing

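No paired analysis was possible because there was 1 culture per time. The counts of members called moved as follows. In whole RNA against 0 h, where 0 were called, DESeq2 called 1 and leaving out a treated culture gave 0 to 2 (HSPA1B and DNAJB1 without the 2 h culture). In new RNA against 0 h, where 4 were called, leaving out a culture gave 1 to 6, with HSPB1 alone left without the 4 h culture and HSPB1 and HSPA1B without the 8 h culture, and DESeq2 and omitting the low-count filter gave 6 each. In pre-existing RNA, where 0 were called, it gave 0 to 1. The slopes in whole and pre-existing RNA, with 8 called, gave 6 to 8 each, with HSPA8 and HSPE1 the calls lost. The slope in new RNA, with 0 called, gave 0 to 1 (HSPA8 without the 2 h culture, HSPB1 without the 6 h culture). For new against pre-existing RNA, with 0 called, omitting the low-count filter gave 1. The causes were not tested. Over all genes, calls against 0 h in whole RNA numbered 201, with 792 by DESeq2, 451 without the filter and 75 to 1600 on leaving out a culture. In new RNA they numbered 1050, with 629 to 2022 on leaving out a culture, and in pre-existing RNA 24, with 180 by DESeq2, 61 without the filter and 5 to 767. Slope calls ran from 1414 to 2569 (whole), 506 to 1164 (new) and 1254 to 2211 (pre-existing) on leaving out a culture, against 2715, 1261 and 2385. Of the tests of single members under an alternative, 448 kept their call and direction, 15 gained a call, 19 lost one, 8 uncalled values changed sign and 0 called values reversed. Without thinning, 109 of 120 shares of cells with a count moved past their interval, and with equal weight per cell 6 of 60 new shares did. With 1 culture at 0 h, a difference peculiar to that culture and an effect of dexamethasone cannot be told apart.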
